A study of Rattus norvegicus with 6 samples.

Results

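The 10 genes described here are transcriptional targets of the Wnt/β-catenin pathway and secreted antagonists of Wnt ligands: Axin2, Nkd1, Apcdd1, Rnf43, Notum, Lef1, Sfrp1, Sfrp2, Wif1 and Dkk3. They were taken by gene symbol from the 37991 gene rows of the deposited table, in which each of the 10 has 1 row, and all 10 passed the filter on low counts that left 17797 genes for testing. The comparison was between cultured oligodendrocyte precursors of SD rats in Raff medium, taken before differentiation (control condition), and cells of the same kind of culture after a change of growth factors that lets them differentiate. Each group has 3 RNA libraries, numbered 1, 2 and 5. Numbers 1 and 2 are labelled day 0 (precursor) and day 3 (differentiated), and number 5 carries no day in that form. The labels state no age, no genetic change and no number of animals behind a library. The question named in the series is which messenger RNAs differ between the control and the differentiated condition.

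Wnt proteins are lipid-modified ligands that bind Frizzled receptors and LRP co-receptors and thereby halt the complex of Axin, APC and GSK3 that marks β-catenin for destruction. β-catenin then enters the nucleus and activates genes through TCF/LEF transcription factors. Many of these targets are themselves brakes on the pathway, and secreted antagonists of the Sfrp, Wif and Dickkopf families act outside the cell. In the oligodendrocyte lineage, sustained β-catenin activity is known to hold back differentiation, while the factor Tcf7l2 is needed for it.

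Total counts per library lay between 55522101 and 79898629, so 1 CPM (reads scaled to library size with TMM factors) rested on 54.9 to 72.0 reads. Same-numbered libraries deviated together, those numbered 1 most of all, so calls are also given with the number as a block (the replicate block) or without both replicate 1 libraries. Without both replicate 1 libraries, 1529 genes were called higher and 1462 lower, beside 1005 and 571 with all libraries. With the block, 14.9% of all genes tested were called higher and 15.7% lower, beside 5.65% and 3.21% without it. The labelled identity was checked on marker genes in deposited TPM, a per-length level. Of 7 oligodendrocyte markers, 7 rose, and their summed TPM was 624 to 841 in precursor and 5921 to 9125 in differentiated libraries. The 6 precursor markers were Pdgfra, Cspg4, Ptprz1, Olig1, Olig2 and Sox10, and all were present in every library. By edgeR 0 of 6 were called, 1 had an unadjusted p under 0.05, and 3 rose and 1 fell with the block. That 1 was Sox10, with every differentiated library above every precursor library (edgeR, a log2 fold change of 1.10, adjusted p = 0.140). Markers of other cells were present as well. The 6 astrocyte markers summed to 1411 to 2624 TPM in precursor and 2345 to 2909 TPM in differentiated libraries, and 3 of 6 rose (5 of 6 with the block). The astrocyte gene Gfap alone was listed at 1148 to 2249 TPM and was not called by edgeR (adjusted p = 0.0849, and 0.0138 with the block, higher in 3 of 3 pairs). The 6 microglia markers summed to 160 to 388 and 131 to 210 TPM, and 0 of 6 were called by edgeR (0 at an unadjusted p under 0.05, and 2 lower with the block). The 6 neuron markers summed to 70.0 to 197 and 74.1 to 91.8 TPM, and 1 of 6, Stmn2, fell (edgeR adjusted p = 0.0268). The 8 fibroblast and pericyte markers summed to 19.5 to 71.8 and 9.47 to 37.5 TPM, with Rgs5 at 0 in every library. Of 7 tested, 1 rose, the pericyte receptor gene Pdgfrb (edgeR, a log2 fold change of 1.04, adjusted p = 0.0265), and 0 fell, while with the block 1 rose and 5 fell. Within each group their sum was highest in replicate 1. The 5 endothelial markers summed to at most 1.18 TPM, with Cldn5 at 0 in every library. The 5 Schwann, choroid and ependymal markers summed to 388 to 800 and 202 to 322 TPM, nearly all of it Ttr, which fell (edgeR, a log2 fold change of -0.98, adjusted p = 0.0257). The part of these cells in the results below was not tested. In RNA from whole cultures, fewer cells of a type and less RNA per cell cannot be told apart.

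TCF/LEF factors bind a core of the letters CTTTGAA or CTTTGAT. The stretch from 250 bases before to 50 after the annotated start, from RefSeq on the assembly GRCr8, was found for 7 of the 10 genes: Axin2, Nkd1, Apcdd1, Rnf43, Lef1, Wif1 and Sfrp2. On both strands, 2 of these 7 stretches held a core, and 2921 of 33469 such stretches in the RefSeq table did (8.73%). Of 73 stretches of the other Wnt genes tested, described below, 4 did (5.48%), and 0 held 2 or more. Axin2 held 2 cores, which 0.571% of all stretches matched or exceeded, and Nkd1 held 1. With the last letter left free (CTTTGAN), Apcdd1 was added, giving 3 of 7, beside 16.0% of all stretches and 8.22% of those of the other Wnt genes. A match is a description of letters and shows no binding, and its absence says only that these letters are not in that window. The 250 bases before the start of Axin2 and Nkd1 are shown because these genes are classic feedback targets and hold the matches. Capitals mark the cores, which begin 232 and 132 bases before the start in Axin2 (chr10:94398535-94398784, + strand) and 141 bases before it in Nkd1 (chr19:34722847-34723096, - strand). Both are written 5′ to 3′ on the gene's strand.
Axin2: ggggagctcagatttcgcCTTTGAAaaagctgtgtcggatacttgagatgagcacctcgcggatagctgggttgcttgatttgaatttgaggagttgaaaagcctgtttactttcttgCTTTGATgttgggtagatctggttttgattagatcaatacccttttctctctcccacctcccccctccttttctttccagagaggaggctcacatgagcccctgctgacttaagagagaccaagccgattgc
Nkd1: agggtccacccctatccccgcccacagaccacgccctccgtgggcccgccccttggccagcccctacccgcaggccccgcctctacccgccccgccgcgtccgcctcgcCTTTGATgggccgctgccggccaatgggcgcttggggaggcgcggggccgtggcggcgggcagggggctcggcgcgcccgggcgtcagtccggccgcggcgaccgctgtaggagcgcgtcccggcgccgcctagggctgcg

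Of the 10 genes, 3 fell in differentiated cells and 0 rose at an adjusted p under 0.05: the membrane inhibitor Apcdd1 and the secreted antagonists Sfrp1 and Dkk3. Each was 2.14 to 2.67 times higher in precursors. Among all genes tested, 3.21% were called lower and 5.65% higher. The same 3 genes were the members whose differentiated libraries all lay below the precursor libraries, and 13.8% of all genes tested did so. The other 7 were not called, and their fold changes pointed both ways: Axin2, Notum, Lef1 and Wif1 had negative and Nkd1, Rnf43 and Sfrp2 positive log2 fold changes. The median log2 fold change was -0.71 over the 10 genes and -0.038 over all genes tested. Of the 10, 3 had an unadjusted p under 0.05, the same 3 that were called. With the replicate block, DESeq2 and limma on TPM, too, 0 rose and 3 fell. Over all 17797 genes tested, the block called 14.9% higher and 15.7% lower, and DESeq2 called 1521 higher and 1252 lower. Limma called 487 higher and 1000 lower on log2(TPM + 1), and 509 and 1090 on log2(TPM + 0.1). Without precursor 2, 1 fell, and 2 fell without precursor 5, differentiated 1, differentiated 2 or differentiated 5.

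**Figure D1:**
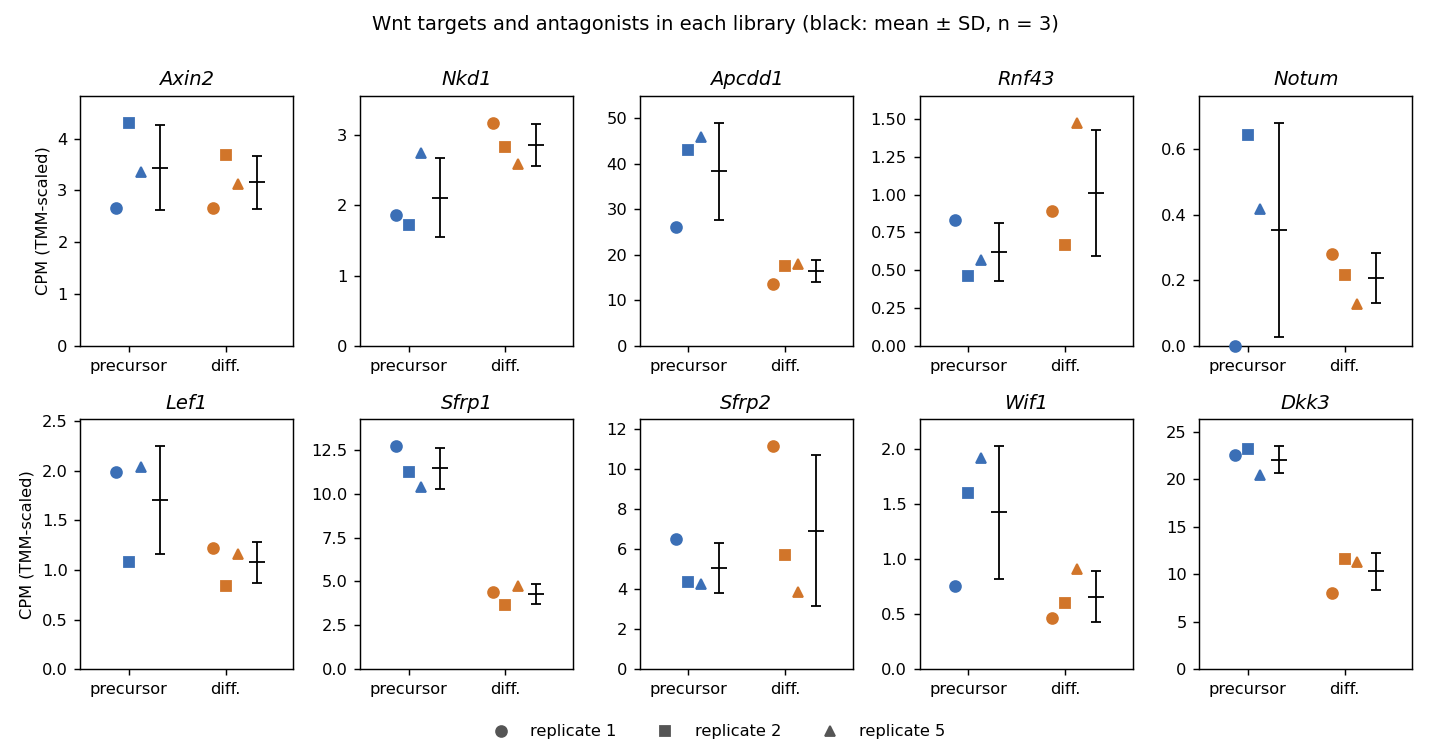
TMM-scaled CPM (y axis, linear, a scale of its own for each gene) of the 10 genes in the 3 precursor (blue) and 3 differentiated (orange) libraries; symbols mark the replicate number and black bars the mean ± SD. In Apcdd1, Sfrp1 and Dkk3 every differentiated library lies below every precursor library, while in the other 7 genes the groups overlap.

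Axin2 encodes a scaffold of the β-catenin destruction complex and is the target most widely used as a readout of the pathway. It was at 2.67, 4.30 and 3.35 CPM in precursors 1, 2 and 5 and at 2.66, 3.69 and 3.13 CPM in differentiated 1, 2 and 5. The groups overlapped almost fully, although each differentiated library lay below its same-numbered precursor library. This was a log2 fold change of -0.12 (SE 0.28, 95% interval -0.77 to 0.52, edgeR adjusted p = 0.844), and it was 0.072 without precursor 2. The interval holds changes from a fall by 0.77 to a rise by 0.52 on the log2 scale, so these libraries leave room for a change within these bounds.

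Nkd1 encodes a protein that binds Dishevelled and dampens the signal. It was at 1.87, 1.72 and 2.75 CPM in precursors 1, 2 and 5 and at 3.18, 2.84 and 2.58 CPM in differentiated 1, 2 and 5. Precursor 5 reached into the differentiated range. Its log2 fold change was 0.44 (SE 0.29, 95% interval -0.23 to 1.11, edgeR adjusted p = 0.421).

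Apcdd1 encodes a membrane-bound glycoprotein that inhibits Wnt signalling at the receptor. It had the highest mean TPM of the 10 genes in both groups, although in differentiated 1 Sfrp2 (4.70 TPM) was above it (3.62 TPM). Its means were 14.6 ± 6.06 TPM (SD, n = 3) in precursors and 5.09 ± 1.30 TPM in differentiated cells. In CPM it was at 26.1, 43.0 and 45.9 in precursors 1, 2 and 5 and at 13.6, 17.6 and 17.9 in differentiated 1, 2 and 5. Every differentiated library lay below every precursor library, and replicate 1 was the lowest of its group in both. The log2 fold change was -1.23 (SE 0.24, 95% interval -1.78 to -0.67, edgeR adjusted p = 0.0214). The call was lost without precursor 2, precursor 5, differentiated 1, differentiated 2 or differentiated 5, where the edgeR adjusted p ran from 0.0552 to 0.0919 and the log2 fold change from -1.08 to -1.30. With the replicate block the edgeR adjusted p was 0.000632, and without both replicate 1 libraries it was 0.00117.

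Rnf43 encodes a membrane ubiquitin ligase that removes Frizzled receptors from the cell surface, and Notum an extracellular enzyme that strips the lipid from Wnt proteins. Both had few reads. Rnf43 had 53, 33 and 41 reads in precursors 1, 2 and 5 and 64, 43 and 81 reads in differentiated 1, 2 and 5, or 0.621 ± 0.190 and 1.01 ± 0.417 CPM (SD, n = 3). Its log2 fold change was 0.70 (SE 0.50, edgeR adjusted p = 0.465), higher in 3 of 3 same-numbered pairs but with overlapping groups. Notum had 0, 46 and 30 reads in precursors 1, 2 and 5 and 20, 14 and 7 reads in differentiated 1, 2 and 5. A count of 0 allows up to 3 reads, or 0.0471 CPM, in precursor 1, for counting error only. The precursor libraries thus span both the lowest and the highest Notum value. Its log2 fold change was -0.76 with a 95% interval of -3.81 to 2.29 (edgeR adjusted p = 0.790), -0.19 with the replicate block (0.953) and -1.60 without both replicate 1 libraries (0.272).

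Lef1 encodes a TCF/LEF transcription factor that is also a target of the pathway. It was at 1.99, 1.08 and 2.04 CPM in precursors 1, 2 and 5 and at 1.23, 0.837 and 1.16 CPM in differentiated 1, 2 and 5. Each differentiated library was below its same-numbered precursor library, but precursor 2 lay within the differentiated range. This gave a log2 fold change of -0.66 (SE 0.38, edgeR adjusted p = 0.354).

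Sfrp1 and Sfrp2 encode secreted proteins with a Frizzled-like cysteine-rich domain that bind Wnt ligands. Sfrp1 was at 12.7, 11.2 and 10.4 CPM in precursors 1, 2 and 5 and at 4.40, 3.67 and 4.77 CPM in differentiated 1, 2 and 5. The lowest precursor library was above the highest differentiated library with a wide gap, and the spread within each group was small. The difference was -1.42 on the log2 scale (SE 0.19, 95% interval -1.86 to -0.97, edgeR adjusted p = 0.00487). Sfrp1 stayed called under each of 15 alternatives, with an adjusted p of at most 0.0327. The summed markers of several other kinds of cell were also lower in each differentiated library than in the same-numbered precursor library. Astrocyte markers, the largest such sum, went the other way. They summed to 1411, 2451 and 2624 TPM in precursors and 2345, 2829 and 2909 TPM in differentiated libraries 1, 2 and 5. Endothelial markers were lower in each pair but summed to at most 1.18 TPM. Fibroblast and pericyte markers summed to 71.8, 19.5 and 26.6 TPM in precursors 1, 2 and 5 and 37.5, 9.47 and 12.0 TPM in differentiated 1, 2 and 5, with Col3a1 the largest share and Pdgfrb going the other way. Schwann, choroid and ependymal markers, nearly all Ttr, went from 388, 716 and 800 TPM to 202, 322 and 310 TPM in that order. They were lowest in replicate 1 of each group, as Apcdd1 was, and so were the astrocyte and oligodendrocyte precursor markers. The precursor markers summed to 309, 532 and 749 TPM in precursor and 316, 472 and 589 TPM in differentiated libraries. Of these sums, Olig1 alone made up 165, 291 and 369 TPM and 162, 252 and 291 TPM in the same order. Microglia markers went from 388, 160 and 181 TPM to 210, 141 and 131 TPM. Neuron markers went from 70.0, 159 and 197 TPM to 84.1, 74.1 and 91.8 TPM, higher in pair 1 and lower in pairs 2 and 5. These sums are in TPM, while the values of Sfrp1 above are in TMM-scaled CPM. The median log2 fold change of all genes was -0.17 on log2(TPM + 1) and -0.038 with TMM, so part of a fall in TPM can be scaling. With TMM, 4 of 6 microglia markers had a negative log2 fold change, and 0 of 6 were called by edgeR (2 lower with the block). The part of any of these kinds of cell in the falls of Sfrp1, Dkk3 and Apcdd1 was not tested.

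Sfrp2 was not called, and its difference from Sfrp1 in response was not tested. It was at 6.49, 4.39 and 4.26 CPM in precursors 1, 2 and 5 and at 11.2, 5.73 and 3.88 CPM in differentiated 1, 2 and 5. Differentiated 1 stood apart at the top, and differentiated 5 was the lowest of all 6 libraries. In both groups replicate 1 was highest, as it was for the summed fibroblast and pericyte markers and for the summed microglia markers. The part of those cells in the Sfrp2 values was not tested. On the log2 scale the difference was 0.46 (SE 0.40, 95% interval -0.49 to 1.40, edgeR adjusted p = 0.566), and -0.059 without differentiated 1.

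Wif1 encodes a secreted inhibitor that binds Wnt ligands through its own WIF domain. It was at 0.753, 1.59 and 1.92 CPM in precursors 1, 2 and 5 and at 0.460, 0.604 and 0.910 CPM in differentiated 1, 2 and 5. Each differentiated library was below its same-numbered precursor library, but precursor 1 fell inside the differentiated range. The log2 fold change was -1.11 (SE 0.50, 95% interval -2.28 to 0.050), close in size to that of Dkk3, but it was not called (edgeR adjusted p = 0.236, and 0.0877 with the replicate block).

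Dkk3 encodes a divergent secreted member of the Dickkopf family, whose action on Wnt signalling differs among cell types. It was at 22.5, 23.2 and 20.5 CPM in precursors 1, 2 and 5 and at 8.04, 11.6 and 11.2 CPM in differentiated 1, 2 and 5. The groups were well apart, with differentiated 1 the lowest library. The log2 fold change was -1.10 (SE 0.18, 95% interval -1.53 to -0.67, edgeR adjusted p = 0.0123). The call was lost without precursor 2 (edgeR adjusted p = 0.0642). Without both replicate 1 libraries Sfrp1 and Dkk3 had log2 fold changes of -1.35 and -0.93 (edgeR adjusted p = 0.00706 and 0.00788).

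**Figure D2:**
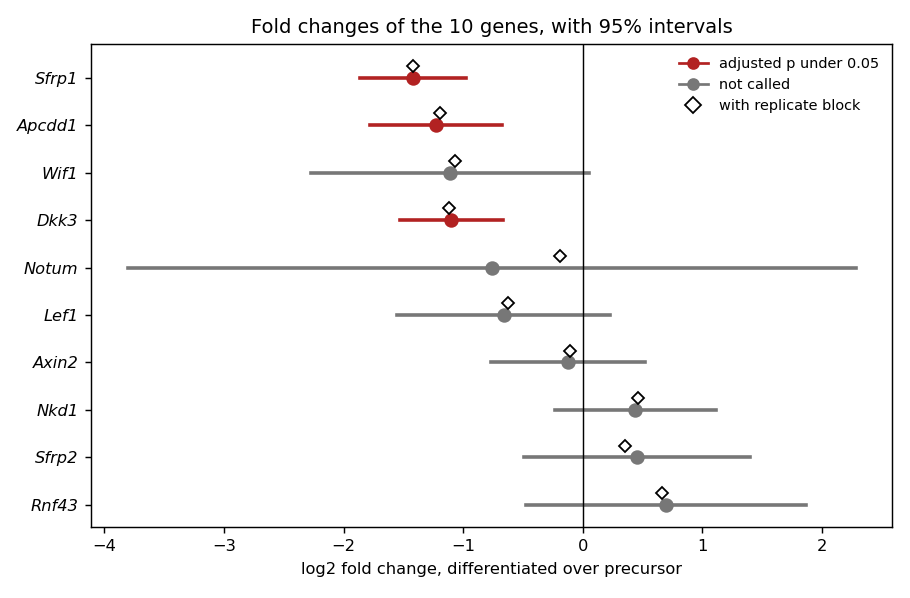
Log2 fold change of differentiated over precursor cells (x axis) for the 10 genes, ordered by size, with the 95% interval as a bar (edgeR, 3 against 3 libraries); red marks the 3 genes called, grey the other 7, and open diamonds the value with the replicate block. The intervals of Sfrp1, Apcdd1 and Dkk3 lie below 0, and that of Notum, from -3.81 to 2.29, is the widest.

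The order of the genes by level, taken per length from the deposited TPM, changed below Apcdd1. In precursors it ran Apcdd1, Dkk3 (4.78 TPM), Sfrp1 (3.36), Sfrp2 (2.88), Axin2 (1.29), Wif1 (0.779), Nkd1 (0.624), Lef1 (0.509), Notum (0.160) and Rnf43 (0.153). Sfrp1 and Sfrp2, Axin2 and Wif1, Wif1 and Nkd1, Nkd1 and Lef1, and Notum and Rnf43 were neighbours whose ranges over the 3 libraries overlapped. In differentiated cells the order was Apcdd1, Sfrp2 (3.22 TPM), Dkk3 (1.89), Sfrp1 (1.06), Axin2 (0.981), Nkd1 (0.680), Wif1 (0.292), Lef1 (0.249), Rnf43 (0.216) and Notum (0.0727). There, Nkd1 against Wif1 and Rnf43 against Notum were the neighbours whose ranges did not overlap.

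Within a library, the ratio of Sfrp2 to Sfrp1 in TPM was 1.00, 0.767 and 0.808 in precursors 1, 2 and 5 and 5.00, 3.07 and 1.60 in differentiated 1, 2 and 5. The lowest differentiated ratio was above the highest precursor ratio. This ratio was looked at after both genes' values were seen and was not tested. Among Sfrp1, Sfrp2, Sfrp4 and Sfrp5, the highest was Sfrp5, a gene outside the 10. Sfrp5 made up 75.4% to 84.8% of their summed TPM in precursor libraries and 85.4% to 90.8% in differentiated libraries. Sfrp1 made up 7.47% to 9.69% and 2.19% to 3.10% of this sum. Sfrp5 itself was at 58.4 ± 7.35 and 74.6 ± 11.7 CPM (SD, n = 3) and was not called (edgeR, a log2 fold change of 0.35 with SE 0.15, adjusted p = 0.227).

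**Figure D3:**
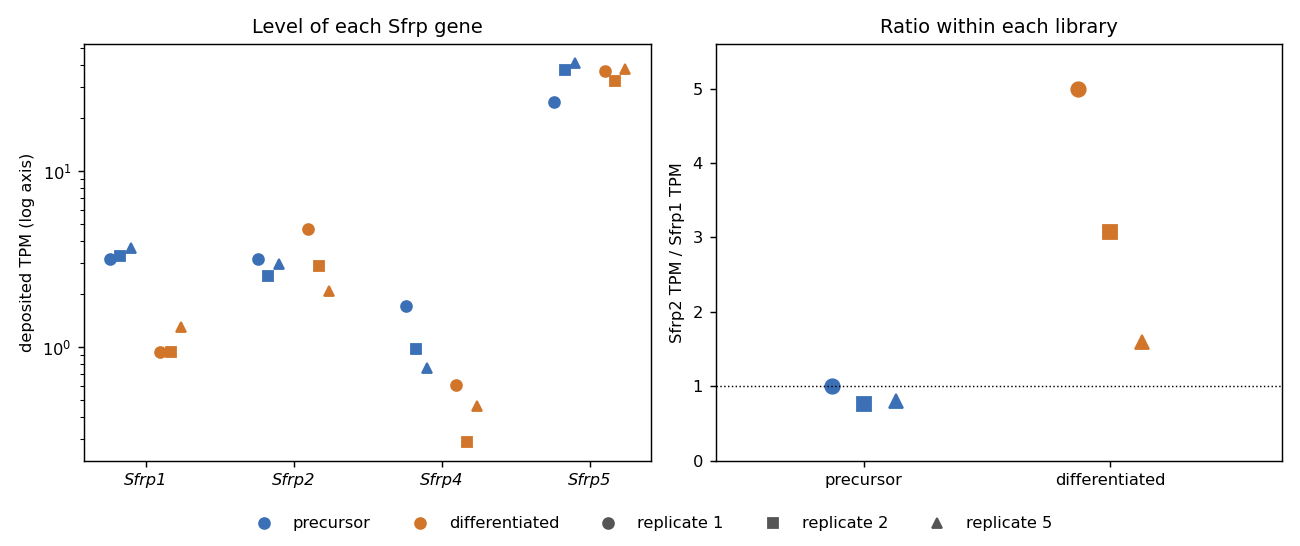
Left, deposited TPM (log axis) of Sfrp1, Sfrp2, Sfrp4 and Sfrp5 in each library. Right, the ratio of Sfrp2 to Sfrp1 TPM within each library, with a dotted line at equal levels. Blue is precursor, orange differentiated, and symbols mark the replicate number. Sfrp5 lies above the other genes in each library, and the ratio runs from 1.60 to 5.00 in differentiated cells against 0.767 to 1.00 in precursors.

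The other genes of the pathway were taken from a list of 103, of which 101 were found and 84 passed the filter. Of these 84, 7 rose and 3 fell, beside 5.65% and 3.21% of all genes tested, and their median log2 fold change was 0.10. With the replicate block 19 rose and 14 fell, where 14.9% of all genes rose and 15.7% fell. Of the 84, 28 had groups that did not overlap, beside 16.5% of all genes tested with all differentiated libraries above and 13.8% with all below.

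Among ligands and their secretion factors, 1 of 14 tested rose and 0 fell (5 rose and 1 fell with the block). Wnt2, a ligand, rose from 0.533, 0.811 and 0.931 CPM in precursors 1, 2 and 5 to 3.19, 4.77 and 5.31 CPM in differentiated 1, 2 and 5, with no overlap (edgeR, a log2 fold change of 2.54 with SE 0.35, adjusted p = 0.00525). The most abundant of this list per length, by mean TPM, was Wls, which escorts Wnt proteins to the cell surface, at 323 ± 33.6 and 394 ± 9.66 CPM (edgeR adjusted p = 0.174, and 0.0169 with the replicate block). Wnt7a and Wnt7b, ligands of the central nervous system, were named after their values were seen. Wnt7a was at 40.2 ± 7.62 and 60.9 ± 10.8 CPM (edgeR adjusted p = 0.11, and 0.00192 with the block). Wnt7b was at 25.7 ± 8.71 and 19.2 ± 4.74 CPM (0.471, and 0.0441 with the block), below its same-numbered precursor library in 3 of 3 pairs.

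Of 17 receptor genes tested, 1 rose and 1 fell (2 and 5 with the block). The Frizzled receptor Fzd10 rose from 4.25, 4.53 and 6.89 CPM in precursors 1, 2 and 5 to 12.5, 15.5 and 23.1 CPM in differentiated 1, 2 and 5 (edgeR, a log2 fold change of 1.71 with SE 0.30, adjusted p = 0.0153). Fzd6 fell from 8.20, 5.63 and 4.31 CPM to 2.01, 1.44 and 1.66 CPM in the same order (edgeR, a log2 fold change of -1.83 with SE 0.31, adjusted p = 0.0134). Neither pair of groups overlapped. The Fzd6 call was lost without precursor 2, differentiated 2 or differentiated 5 (edgeR adjusted p up to 0.0727), and the Fzd10 call without the same libraries (up to 0.0789). Limma on TPM did not call Fzd10 either. Ryk, a kinase-like Wnt co-receptor and the most abundant of the list, was at 82.3 ± 6.91 and 81.6 ± 2.36 CPM (edgeR adjusted p = 0.963). Of 6 genes of the R-spondin branch, which protects Frizzled receptors from Rnf43 and its relative Znrf3, 1 rose. This was Lgr4, a receptor for R-spondins, which went from 18.6, 17.6 and 20.2 CPM in precursors to 36.3, 35.8 and 37.2 CPM in differentiated cells (edgeR, a log2 fold change of 0.95 with SE 0.12, adjusted p = 0.00356). Limma did not call it on log2(TPM + 1) or log2(TPM + 0.1) (adjusted p = 0.106 and 0.102).

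Of 7 further secreted or surface antagonists tested, 0 were called by edgeR, and 1 had an unadjusted p under 0.05. Draxin, named after its values were seen, was at 3.48, 16.0 and 19.9 CPM in precursors 1, 2 and 5 and 1.50, 3.15 and 6.61 CPM in differentiated 1, 2 and 5. The groups overlapped through precursor 1, and each differentiated library was below its same-numbered partner (edgeR adjusted p = 0.188, 0.0397 by DESeq2, 0.00263 with the block and 0.0143 when both replicate 1 libraries were left out).

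Of 18 cytoplasmic genes tested, 2 rose and 1 fell (7 and 1 with the block). Daam2, a formin that binds Dishevelled and is known in this lineage, rose from 2.96, 3.10 and 3.32 CPM in precursors to 16.9, 12.5 and 16.4 CPM in differentiated cells (edgeR, a log2 fold change of 2.29 with SE 0.19, adjusted p = 0.000785). Nkd2, the paralog of Nkd1, rose from 2.95 ± 0.386 to 6.52 ± 0.570 CPM (edgeR, a log2 fold change of 1.14 with SE 0.21, adjusted p = 0.0186). Nkd1 itself, at a log2 fold change of 0.44, was not called, and the difference between the paralogs was not tested. Csnk1e, a casein kinase that acts on Dishevelled, fell from 57.0 ± 5.75 to 36.9 ± 1.97 CPM (edgeR, a log2 fold change of -0.63, adjusted p = 0.0205). The Nkd2 and Csnk1e calls were each lost without precursor 2, precursor 5, differentiated 2 or differentiated 5, and Nkd2 was not called by limma on TPM. Ctnnb1, which encodes β-catenin, was the most abundant of this list at 1131 ± 213 and 1074 ± 204 CPM and was not called (log2 fold change -0.074, 95% interval -0.52 to 0.37, edgeR adjusted p = 0.865).

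Of 13 nuclear genes tested, 1 rose (3 with the block). Ctnnbip1, which blocks the binding of β-catenin to TCF/LEF factors, rose from 35.7, 47.9 and 39.1 CPM in precursors to 90.4, 92.9 and 92.3 CPM in differentiated cells (edgeR, a log2 fold change of 1.17 with SE 0.13, adjusted p = 0.00269), and this call held in each of 15 alternatives. Tle5, a short member of the Groucho co-repressor family listed in the table under its older symbol Aes, was the most abundant of this list (144 ± 19.3 and 152 ± 13.2 CPM, edgeR adjusted p = 0.786), with a log2 fold change of 0.078 that was -0.072 with library size alone and -0.18 on TPM. Tcf7l2, named after its values were seen, was at 1.69, 3.02 and 5.42 CPM in precursors 1, 2 and 5 and 4.03, 6.68 and 9.66 CPM in differentiated 1, 2 and 5. It was higher in 3 of 3 same-numbered pairs with overlapping groups (log2 fold change 1.01, edgeR adjusted p = 0.267, and 0.00527 with the block).

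Of 9 further reported targets, 1 rose and 1 fell, and 8 had a negative log2 fold change, with a median of -0.74. Of all 17797 genes tested, 9491 had a negative one. With the block 6 of the 9 fell and 1 rose, beside 15.7% and 14.9% of all genes. Cd44, a hyaluronan receptor, fell from 416 ± 41.8 to 231 ± 31.8 CPM (edgeR, a log2 fold change of -0.85 with SE 0.14, adjusted p = 0.0101), a call lost without differentiated 2 (0.0667) or differentiated 5 (0.0516). Tnfrsf19, a receptor of the tumour necrosis factor family, rose from 11.5 ± 1.81 to 21.4 ± 4.30 CPM (edgeR, a log2 fold change of 0.90 with SE 0.20, adjusted p = 0.0372), a call lost in each of 6 fits that left out 1 library except that without differentiated 1, and with library size alone or limma on TPM. Ccnd1, cyclin D1, had the highest mean TPM of the list over all 6 libraries (87.3, beside 84.2 for Cd44). It was at 501, 352 and 326 CPM in precursors 1, 2 and 5 and 300, 218 and 206 CPM in differentiated 1, 2 and 5. Its groups did not overlap, and its log2 fold change was -0.70 (edgeR adjusted p = 0.0939, and 0.000357 with the block).

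**Figure D4:**
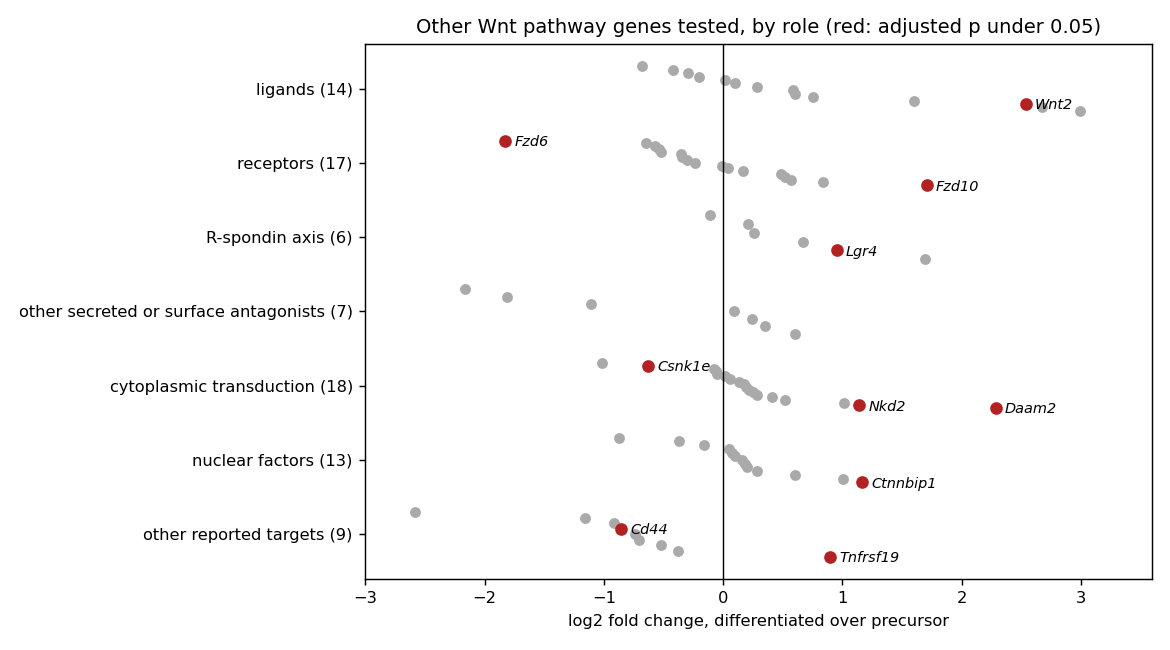
Log2 fold change of differentiated over precursor cells (x axis) for the 84 other Wnt pathway genes tested, in rows by role with the number tested in brackets; red points with names are the 10 genes called, grey points the other 74. Within a row, points are spread by rank to keep them apart.

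Genes with profiles most like 2 of the members over the 6 libraries were looked up among 13122 genes with a mean log2 CPM of at least 1. For Apcdd1 these were Smtn (Pearson's r of log2 CPM 0.999), Ncapd3 (0.997) and Cntnap3b (0.996), and for Sfrp1 they were Cdc7 (0.997), the entry LOC100359916 (0.995) and Paxbp1 (0.995). With 6 libraries in 2 groups and so many genes, such values are a description only.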

How the data were processed

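RNA was measured in 3 precursor and 3 differentiated libraries of rat oligodendrocyte cultures, made with a stranded total RNA kit per the labels' protocols. Per the submitters' processing notes, the tools were StringTie 2.1.3b, HISAT2 2.1.0, Trimmomatic 0.38 and bcl2fastq 2.20.0. These notes name GRCh38, a human build, while the gene identifiers are rat. For the rat build and the strand setting nothing is recorded in the labels, so overlapping and antisense genes cannot be told apart. The deposited counts are whole, unnormalized read counts per gene. The authors' TPM (scaled per length to a fixed total) served for levels between genes, and the authors' FPKM was not used.

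Counts of all 17797 genes that passed edgeR's low-count filter were fitted with edgeR 4.0.16 in R 4.3.3 (TMM scaling, robust quasi-likelihood test, Benjamini-Hochberg adjustment over all genes, called under 0.05). The standard error is the log2 fold change divided by the square root of F, and 95% intervals use the test's degrees of freedom. Alternatives used DESeq2 1.42.0, limma 3.58.1 on log2(TPM + 1) and log2(TPM + 0.1), other scalings and filters, a replicate block, and left-out libraries. The procedures were also run on simulated counts that held no shared effect of the replicate number, and limma there used CPM, not TPM. That run thus does not cover the shared deviations of same-numbered libraries. The labels do not say that replicates are separate cultures, so the p-values refer to spread among these libraries only, and that spread may be technical.

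Same-numbered libraries deviated together from their group means (correlations across genes of 0.421, 0.197 and 0.272 for numbers 1, 2 and 5, each above 0.1). The numbers, which come from the titles, were therefore taken to pair the samples in the block and in same-numbered comparisons. The main edgeR fit had no replicate block and did not use this pairing. Unlike numbers also reached 0.105 (precursor 5 with differentiated 2) and 0.0987 (precursor 2 with differentiated 5). Deviations within a group sum to 0, so these correlations depend on each other. The pairing of numbers 2 and 5 is thus less certain than that of number 1. The members and lists were chosen with earlier results of these data known. Named with values were the 10 members and, in each list by role, each gene called and the gene with the highest mean TPM. Wnt7a, Wnt7b, Draxin and Tcf7l2 were added after their values were seen. Of the 37991 gene identifiers, 29216 matched RefSeq's table of GRCr8. The listed symbols Axin1 and Tnks2 matched no row and were not analysed here.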

Additional observations from a re-analysis of the deposited data

How the results depend on the processing

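Of the 10 genes, 0 rose and 3 fell under both other scalings, DESeq2, limma on TPM, no low-count filter and the replicate block. With at least 1 CPM in 3 libraries, 7 of the 10 were tested, without Rnf43, Notum and Wif1, and 3 of the 7 fell. Leaving out libraries gave 1 to 3 that fell (1 without precursor 2) and 0 that rose. Over all genes, the replicate block gave 2643 higher and 2797 lower, DESeq2 1521 and 1252, limma on log2(TPM + 1) 487 and 1000, and limma on log2(TPM + 0.1) 509 and 1090. With library size alone 678 were higher and 1006 lower. Leaving out 1 library gave 484 to 947 higher and 148 to 561 lower, and leaving out both replicate 1 libraries 1529 and 1462. Of the other Wnt genes, 19 rose and 14 fell with the block, 4 and 5 with limma at either pseudocount, 12 and 8 without both replicate 1 libraries, and 4 to 9 and 0 to 5 without 1 library (0 fell without differentiated 2 or differentiated 5). In that list 6 fell with library size alone and 7 with DESeq2. The median log2 fold change of all genes, -0.038 with TMM, was -0.19 with library size alone, -0.17 on log2(TPM + 1) and -0.26 on log2(TPM + 0.1). The log2 fold change of Tle5 turned to -0.072 with library size alone and -0.18 with limma at either pseudocount, and ran from -6.3e-05 to 0.19 without 1 library. Without 1 library, values ran from -0.27 to 0.072 for Axin2, -0.059 to 0.74 for Sfrp2, -0.072 to 0.033 for Ryk and -0.22 to 0.066 for Ctnnb1. The causes were not tested. At these depths, Notum and Rnf43 rest on at most 46 and 81 reads in a library.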
